A study of Homo sapiens with 4 samples.

Results

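Aminoacyl-tRNA synthetases are the enzymes that attach each amino acid to its tRNA. The genes of 36 such enzymes, chosen by symbol, were followed in a count table of 26364 gene rows from 2 colorectal cancer cell lines. Of these, 20 encode the cytosolic enzymes or their subunits and 16 encode mitochondrial enzymes, whose symbols end in 2. GARS and KARS were counted with the cytosolic genes although each serves both compartments. All 36 passed the filter on low counts, beside 14024 genes of the whole table.

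RNA was sequenced from SW480 and SW620, lines derived from a primary colon tumour and from a lymph node metastasis of the same patient. Each line gave 1 library of cells depleted of SHMT2 and 1 control library, so each line and condition was measured once. SHMT2 is the mitochondrial enzyme that moves the side-chain carbon of serine onto folate and makes glycine. Per the methods of the study, depletion was by short hairpin RNAs in a lentiviral vector that doxycycline switches on. The labels call the other cells only controls, while the study's text on this profile speaks of control shRNA cells. Neither whether the controls received doxycycline nor which SHMT2 hairpin was sequenced is stated. The totals were 9590550 counts in SW480 control, 6432779 in SW480 knockdown, 5530129 in SW620 control and 13774288 in SW620 knockdown, so the knockdown library was the shallower of the pair in SW480 and the deeper in SW620. The epithelial genes EPCAM, KRT8, KRT18, CDH1 and CDX2 were counted in every library. The intestinal genes KRT20, at 0.149 to 1.56 counts per 1000000 counts of the library (CPM), and VIL1 in SW480, at 0.151 to 0.208 CPM, were near 0. The leukocyte, fibroblast and endothelial genes PTPRC, DCN and PECAM1 had 0 to 2 counts per library, while a second fibroblast gene, COL1A1, had 35 to 203 counts, or 6.39 to 21.1 CPM.

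A synthetase first activates its amino acid with ATP and then transfers it to the tRNA, and several of the enzymes also remove amino acids that were attached by mistake. In human cells the cytosolic enzymes charge the tRNAs with which ribosomes translate the messages of nuclear genes. A separate set, encoded in the nucleus and imported, charges the mitochondrial tRNAs for the few respiratory chain proteins made inside mitochondria. Several cytosolic synthetase genes are transcribed by ATF4, the factor that is made when amino acids run short. Folate-bound carbon from the SHMT2 reaction is used in mitochondria to formylate the initiator tRNA and to modify the wobble base of some mitochondrial tRNAs, which is the setting in which the synthetases were examined.

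Levels between genes were compared as CPM per kilobase of exon. In each library the median of the cytosolic genes was several times that of the mitochondrial genes. The cytosolic median was 79.0 CPM per kilobase in SW480 control, 79.2 in SW480 knockdown, 76.1 in SW620 control and 73.9 in SW620 knockdown. The mitochondrial median was 11.5, 11.8, 14.0 and 14.6 in the same order of libraries. The highest mitochondrial genes were IARS2, for isoleucine tRNA, at 53.7 to 57.6 CPM per kilobase in all libraries, and CARS2, for cysteine tRNA, at 67.4 and 63.3 in SW620 control and knockdown. Both lay within the range of the cytosolic genes in those libraries, whose lowest member in SW480 was CARS with 28.9 CPM per kilobase in the control.

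On the mean of the control libraries, the highest levels were those of KARS, AARS, GARS and IARS, which charge the tRNAs of lysine, alanine, glycine and isoleucine. KARS measured 103 CPM per kilobase in SW480 control, 101 in SW480 knockdown, 315 in SW620 control and 359 in SW620 knockdown. AARS measured 80.0, 85.5, 175 and 201 CPM per kilobase in that order. Both genes stood higher in the SW620 libraries. GARS measured 113, 112, 123 and 142 CPM per kilobase and IARS 115, 122, 95.5 and 114, so these levels lay within a narrow range over all 4 libraries. At the other end were the mitochondrial enzymes for tryptophan, proline, phenylalanine and alanine. WARS2 measured 2.42, 4.36, 9.06 and 10.2 CPM per kilobase, the lowest of all members in both SW480 libraries. PARS2 measured 6.17, 7.45, 5.70 and 5.16, and was the lowest in both SW620 libraries. FARS2 lay between 6.37 and 10.1 CPM per kilobase and AARS2 between 6.77 and 14.6. Read numbers set the precision here, since the cytosolic genes had 579 to 11748 counts per library and the mitochondrial genes 66 to 2758.

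**Figure D1:**
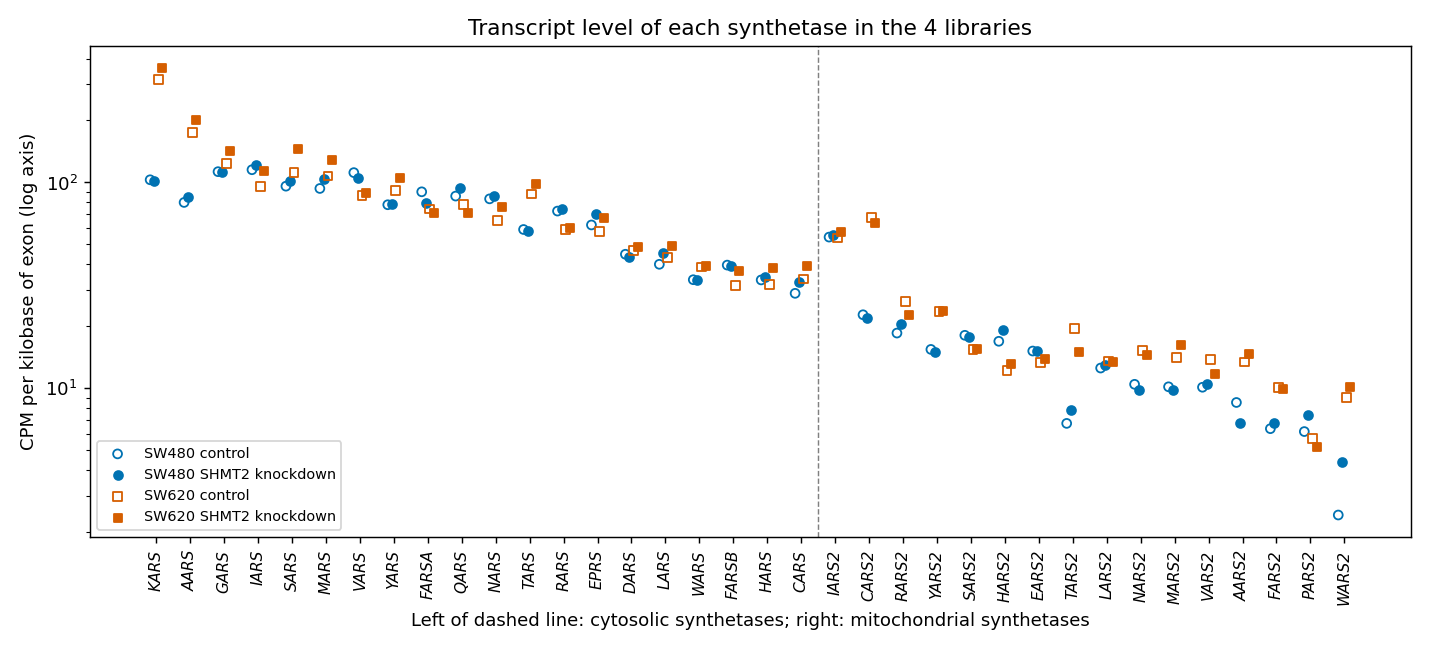
Level of each of the 36 synthetase genes, in CPM per kilobase of exon on a log axis, with 1 point per library (open, control, filled, knockdown, circles, SW480, squares, SW620). Cytosolic genes cluster around medians of 73.9 to 79.2 and mitochondrial genes around 11.5 to 14.6, with IARS2 and CARS2 the highest of the mitochondrial genes.

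The knockdown was present in both lines. SHMT2, on chromosome 12 from 57229327 to 57234935 in GRCh38, had 277 CPM in SW480 control and 30.9 in SW480 knockdown, and 688 CPM in SW620 control and 47.6 in SW620 knockdown. Both knockdown libraries lay below both controls. The fitted log2 fold change of knockdown against control was -3.54 with a standard error of 0.12 (edgeR quasi-likelihood test, adjusted p = 1.06e-167).

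No synthetase gene passed the test for a change upon SHMT2 knockdown. At an adjusted p under 0.05, 0 of 36 were lower and 0 were higher, against 1.17% of all genes tested that were lower and 0.492% that were higher. Their adjusted p-values started at 0.458. At an unadjusted p of 0.05 or less, 0 members were lower, against 4.91% of all genes, and 2 members, 5.56%, were higher, against 4.15% of all genes. DESeq2 gave 0 members in either direction at either threshold, with no adjusted p for 15 of them. The standard errors of the fitted log2 fold changes were 0.10 to 0.12 for the cytosolic genes and 0.11 to 0.22 for the mitochondrial genes. In bulk RNA such as this, fewer cells with a transcript and less of it per cell cannot be told apart.

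The values of the cytosolic genes lay mostly above those of their controls in SW620, and closer to them in SW480. In SW620, 18 of 20 cytosolic genes and 8 of 16 mitochondrial genes had a log2 fold change above 0, so 26 members in all. The 10 members below 0 were 27.8%, against 48.6% of all genes tested. In SW480, 12 cytosolic and 10 mitochondrial genes were above 0, together 61.1%, against 50.9% of all genes. Higher in both lines were 15 members, or 41.7%, against 27.0% of all genes. Lower in both were 3 members, or 8.33%, against 24.7%. The other 18 members had opposite signs in the lines. The median log2 fold change of the cytosolic genes was 0.04 in SW480 and 0.20 in SW620, and 0.10 in the fit over both lines. That of the mitochondrial genes was 0.04, -0.00 and 0.01, and that of all genes tested 0.00, 0.00 and 0.01. In 18 of the 20 cytosolic genes the SW620 value was the larger. Summed over the cytosolic genes, 4818 CPM in SW480 control stood beside 4965 CPM in SW480 knockdown, a ratio of 1.03, and 5597 beside 6307 CPM in SW620, a ratio of 1.13. The mitochondrial sums were 712 and 731 CPM in SW480 and 923 and 918 CPM in SW620.

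With a single library per line and condition, the difference between the lines could not be tested, and an interval within a line covers counting error only. Outside a 95% counting interval around 0, 14 members were higher and 3 lower in SW620, against 13.3% and 12.5% of all genes. By the same measure 8 were higher and 3 lower in SW480, against 14.3% and 15.8% of all genes. The 14 members in SW620 were all cytosolic, and this interval narrows as counts rise. Median counting standard errors in SW620 were 0.05 for the cytosolic and 0.11 for the mitochondrial genes. The shares of all genes were not matched for counts. The SW620 knockdown library was also the deepest, and its depth and its condition cannot be told apart.

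**Figure D2:**
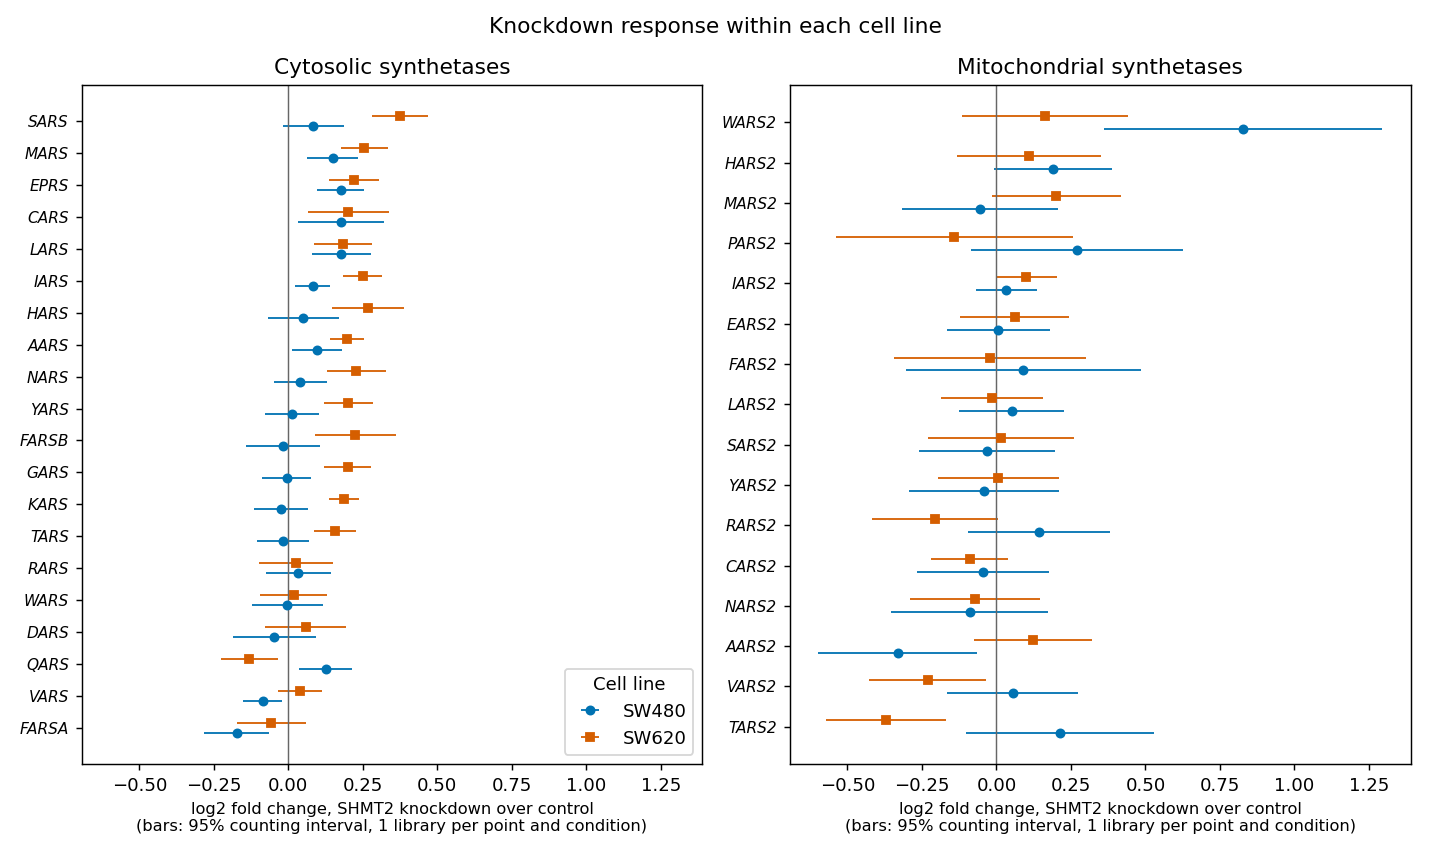
Log2 fold change of knockdown against control (horizontal axis) within SW480 (circles) and SW620 (squares) for each cytosolic gene on the left and mitochondrial gene on the right, ordered by the fitted value, with bars of the 95% counting interval. Of the SW620 squares 18 of 20 lie above 0 on the left and 8 of 16 on the right, and WARS2 in SW480 lies farthest to the right.

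SARS and WARS2 were the pair with an unadjusted p of 0.05 or less. SARS, the seryl-tRNA synthetase of the cytosol, lies on chromosome 1 from 109213918 to 109238169 in GRCh38. It had 187 CPM in SW480 control, 198 in SW480 knockdown, 217 in SW620 control and 282 in SW620 knockdown. Each knockdown library was above its own control, and the SW480 knockdown value lay below that of the SW620 control. The fitted log2 fold change was 0.23 with a 95% interval of 0.01 to 0.45 (unadjusted p = 0.0394, adjusted p = 0.505), beside 0.08 within SW480 and 0.37 within SW620. Serine, its substrate, is also the substrate of SHMT2.

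WARS2, which charges mitochondrial tRNA with tryptophan, had 66 counts in SW480 control, 82 in SW480 knockdown, 140 in SW620 control and 387 in SW620 knockdown. These were 6.87, 12.4, 25.7 and 28.8 CPM, so that the knockdown library was higher in each line while both SW480 libraries stayed below both SW620 libraries. The fitted log2 fold change was 0.43 with a 95% interval of 0.04 to 0.83 (unadjusted p = 0.0323, adjusted p = 0.458). Within SW480 it was 0.83 with a counting standard error of 0.24, and within SW620 0.16 with a counting standard error of 0.14.

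MARS and EPRS had the next largest values. Both enzymes belong to the multi-synthetase complex, a cytosolic assembly of several synthetases held together by scaffold proteins. MARS, the methionyl-tRNA synthetase, had 272 CPM in SW480 control, 301 in SW480 knockdown, 312 in SW620 control and 373 in SW620 knockdown. Its fitted log2 fold change was 0.20 with a 95% interval of -0.01 to 0.41 and an adjusted p of 0.578. MARS overlaps DDIT3 on the opposite strand, which had 20.1 to 27.0 CPM. EPRS, which joins the glutamyl- and prolyl-tRNA synthetases in 1 protein, had 312, 352, 291 and 339 CPM in the same order. Its fitted value was 0.20 with an interval of -0.01 to 0.40 and an adjusted p of 0.589. For both genes each knockdown library was above its own control. The 8 enzymes of the complex had a median log2 fold change of 0.12, with 6 above 0 in SW480 and 7 in SW620. Of all genes tested, 50.9% were above 0 in SW480 and 7016 of 14024 in SW620.

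The largest negative values were those of TARS2, FARSA, VARS2 and AARS2, and none passed the test. TARS2, the mitochondrial threonyl-tRNA synthetase, had 18.8 CPM in SW480 control and 21.9 in SW480 knockdown, but 54.3 CPM in SW620 control and 41.9 in SW620 knockdown. The lines moved in opposite directions, by 0.21 with a counting standard error of 0.16 and by -0.37 with one of 0.10, and the fitted value was -0.12 with a 95% interval of -0.43 to 0.18 (adjusted p = 0.957). FARSA, the catalytic subunit of cytosolic phenylalanyl-tRNA synthetase, had 188 and 167 CPM in SW480 and 155 and 149 CPM in SW620, control first. It was the cytosolic gene lower in both lines, with a fitted log2 fold change of -0.12 and an interval of -0.34 to 0.11. VARS2, for mitochondrial valine tRNA, had 41.2, 42.8, 56.3 and 47.9 CPM, and a fitted value of -0.09 with an interval of -0.36 to 0.18. AARS2, for mitochondrial alanine tRNA, had 32.9, 26.1, 51.7 and 56.3 CPM. Its knockdown library was the lower in SW480 and the higher in SW620, and the fitted log2 fold change was -0.08 with an interval of -0.36 to 0.20.

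By the size of the log2 difference alone, WARS2, TARS2, AARS2 and PARS2 differed most between the lines in their response. The SW620 value minus the SW480 value on the log2 scale was -0.66 for WARS2, with a counting standard error of 0.28. It was -0.58 for TARS2, with a counting standard error of 0.19, and 0.46 for AARS2, with one of 0.17. PARS2, for mitochondrial proline tRNA, had 73 to 163 counts per library, and its difference of -0.41 had a counting standard error of 0.27. These 4 are all mitochondrial, and WARS2 and PARS2 were among the members with few counts. AARS2 had 173 to 758 counts per library and TARS2 145 to 564. The mitochondrial medians were 229 to 607.5. Among the cytosolic genes, SARS had a difference of 0.29 with a counting standard error of 0.07, and KARS 0.21 with one of 0.05. These differences were smaller than those of the 4 mitochondrial genes, but larger against their counting error. Of the cytosolic genes, QARS, the glutaminyl-tRNA synthetase, lay outside the 95% counting interval around 0 in both lines, with opposite signs. It had 248 CPM in SW480 control, 271 in SW480 knockdown, 225 in SW620 control and 206 in SW620 knockdown.

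ATF4 acts through a short DNA element whose core was searched as TGATGNAA, or TTNCATCA on the other strand. Promoter windows of RefSeq (GRCh38.p14), from 250 bases before to 50 bases after a gene's start, were matched by symbol for 30 of the 36 members. DARS, LARS, VARS, YARS, AARS2 and VARS2 had none. A match stood in the windows of 7 of 16 cytosolic genes, or 43.8%, and of 1 of 14 mitochondrial genes, or 7.14%. Of all genes with a window, 4.46% had one, and of all windows 3.62%. The 8 matches are shown because the grouping by ATF4 element turns on these letters. Each is given with 16 bases on either side, on the strand of the gene, with the match in capitals. A match describes the letters only, and no binding was measured.
AARS: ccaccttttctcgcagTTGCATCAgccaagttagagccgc
CARS: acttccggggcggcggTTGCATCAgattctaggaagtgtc
GARS: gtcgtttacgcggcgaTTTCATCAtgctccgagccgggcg
IARS: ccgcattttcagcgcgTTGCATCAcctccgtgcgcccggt
MARS: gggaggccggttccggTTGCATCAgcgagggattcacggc
NARS: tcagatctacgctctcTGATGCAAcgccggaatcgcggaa
TARS: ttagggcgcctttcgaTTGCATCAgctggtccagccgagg
YARS2: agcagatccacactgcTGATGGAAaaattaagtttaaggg

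The stretches lie at chr16:70289670-70289709 on the minus strand for AARS and chr11:3057402-3057441 on the minus strand for CARS. Those of GARS and IARS lie at chr7:30594829-30594868 on the plus strand and chr9:92293687-92293726 on the minus strand. Those of MARS and NARS lie at chr12:57488048-57488087 on the plus strand and chr18:57621799-57621838 on the minus strand. Those of TARS and YARS2 lie at chr5:33440951-33440990 on the plus strand and chr12:32756071-32756110 on the minus strand. Counted from the start base, the matches of CARS, IARS, MARS and TARS began at -2, -13, -4 and 2, those of GARS and NARS at -33 and 14, and those of AARS and YARS2 farther out at -187 and -197. In AARS, CARS, IARS, MARS and TARS the matched letters were the same 8 on the same strand, and NARS had their reverse complement.

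The 7 cytosolic genes with a match had a median log2 fold change of 0.15, with 0.08 in SW480 and 0.20 in SW620, and 5 of 7 were above 0 in SW480 and 7 of 7 in SW620. The 9 cytosolic genes with a window and no match had a median of 0.08, with 0.03 in SW480 and 0.19 in SW620, and 5 of 9 were above 0 in SW480 and 7 of 9 in SW620. Of all genes tested, 50.9% were above 0 in SW480 and 7016 of 14024 in SW620. The group without a match held EPRS, SARS and WARS, which are in the list of known ATF4 targets below. The difference between the groups with and without a match was not tested, and 0 genes of either group passed the adjusted threshold. In AARS the values were 278 CPM in SW480 control, 297 in SW480 knockdown, 609 in SW620 control and 697 in SW620 knockdown. CARS, for cysteine tRNA, had 90.4, 102, 106 and 122 CPM, and IARS had 552, 584, 458 and 544 CPM. In these 3 genes, as in MARS above, each knockdown library was above its own control. NARS, for asparagine tRNA, had 258, 265, 202 and 237 CPM, also with each knockdown library above its own control. GARS had 299, 298, 327 and 375 CPM, and TARS, for cytosolic threonine tRNA, had 269, 266, 401 and 447 CPM. In both of these the knockdown library was slightly below its control in SW480 and above it in SW620. YARS2, for mitochondrial tyrosine tRNA, had 32.8, 31.8, 50.1 and 50.3 CPM, and its knockdown and control values were nearly equal in each line.

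A list of 12 cytosolic synthetase genes known as ATF4 targets contained these 7 with EPRS, LARS, SARS, WARS and YARS. The list was chosen with earlier results of these data known. Its median log2 fold change was 0.16, with 9 of 12 above 0 in SW480 and 12 of 12 in SW620. Of all genes tested, 50.9% were above 0 in SW480 and 7016 of 14024 in SW620. In the list 1 gene, SARS, was higher at an unadjusted p of 0.05 or less, against 4.15% of all genes. The 8 other cytosolic genes had a median of 0.02, with 3 above 0 in SW480 and 6 in SW620. The contrast of these groups was not tested. By structural class, the 18 class I enzymes had a median of 0.03 and the 17 class II enzymes one of 0.08. EPRS holds an enzyme of each class and was in neither.

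**Figure D3:**
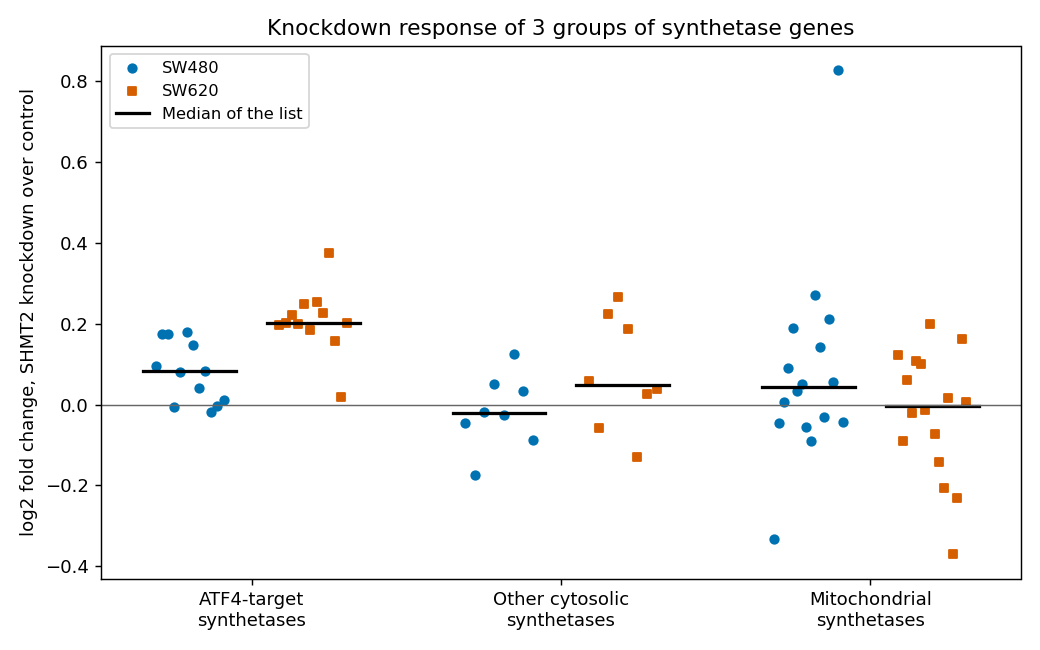
Log2 fold change of knockdown against control within each line (circles, SW480, and squares, SW620) for the ATF4-target, the other cytosolic and the mitochondrial synthetase genes, 1 point per gene with a line at the median of each group. The ATF4-target synthetases have medians of 0.08 in SW480 and 0.20 in SW620, beside 0.00 in both lines for all genes tested.

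Of 10 further genes of the amino acid response, 1 passed the adjusted threshold and was higher, against 0.492% of all genes tested. PHGDH, the first enzyme of serine synthesis from glucose, had 108 CPM in SW480 control, 161 in SW480 knockdown, 97.4 in SW620 control and 118 in SW620 knockdown. Both knockdown libraries were above both controls, and PHGDH rose by 0.43 on the log2 scale, with a standard error of 0.12 and an adjusted p of 0.0333. The call was lost without a filter, with a filter of 50 counts and with DESeq2, at adjusted p-values of 0.13, 0.169 and 0.495. With PHGDH, 5 of the 10 were higher at an unadjusted p of 0.05 or less, against 4.15% of all genes. The 4 others did not pass the adjusted threshold. These were PSAT1, the next enzyme of serine synthesis, with 0.32 and an adjusted p of 0.151, ASNS, asparagine synthetase, with 0.31 and 0.231, the cystine carrier SLC7A11 with 0.43 and 0.0658, and the lipoprotein receptor gene VLDLR with 0.93 and 0.243. The VLDLR value rests on SW620, where it had 51 counts in control and 249 in knockdown, since SW480 had 1 and 0. The transcript of ATF4 itself had 500 CPM in SW480 control, 445 in SW480 knockdown, 483 in SW620 control and 639 in SW620 knockdown. Its fitted log2 fold change was 0.12 with a standard error of 0.10 and an adjusted p of 0.881. ATF4 is regulated mainly in translation, which these libraries do not measure. The list's median was -0.15 in SW480, with 4 of 10 above 0, and 0.40 in SW620, with 10 of 10. Of all genes tested, 50.9% were above 0 in SW480 and 7016 of 14024 in SW620.

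Tested beside the synthetases were 3 scaffold genes, 6 genes of editing and peptidyl-tRNA release and 6 of tRNA export and cytosolic elongation. Of these, 1 passed the adjusted threshold and was lower, against 1.17% of all genes tested. PTRHD1, a gene with a peptidyl-tRNA hydrolase domain, had 17.1 CPM in SW480 control, 8.45 in SW480 knockdown, 37.2 in SW620 control and 15.6 in SW620 knockdown. Both knockdown libraries lay below both controls, though the SW620 knockdown was near the SW480 control. PTRHD1 fell, and the fitted log2 fold change was -1.16 with a standard error of 0.20 (adjusted p = 3.4e-06). It overlaps CENPO on the opposite strand, and the use of strand in counting is not stated. Among the 3 scaffold genes of the multi-synthetase complex, AIMP2 had 70.0 and 54.8 CPM in SW480 and 116 and 90.7 CPM in SW620, control first. The fitted value was -0.35 on the log2 scale, near those of either line alone, with an unadjusted p of 0.00588 and an adjusted p of 0.18. EEF1A1, the elongation factor that carries charged tRNA to the ribosome, had a log2 fold change of 0.23, a standard error of 0.07 and an adjusted p of 0.0748. The other 5 genes of tRNA export and cytosolic elongation, the other 2 scaffold genes and the other 5 tested genes of editing and peptidyl-tRNA release had an unadjusted p above 0.05.

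The mitochondrial steps that use folate-bound carbon gave no call. MTFMT, which formylates the initiator tRNA, had 25.5 CPM in SW480 control, 28.8 in SW480 knockdown, 27.1 in SW620 control and 25.4 in SW620 knockdown. Its fitted log2 fold change was 0.04 with a 95% interval of -0.28 to 0.37. The log2 fold change of MTO1 was 0.04 with a standard error of 0.14, and that of GTPBP3 -0.17 with a standard error of 0.14. These genes encode the pair of proteins that modify the wobble base. Of the 10 genes for amidation, formylation and modification of mitochondrial tRNA and the 8 for mitochondrial initiation and elongation, 0 had an unadjusted p of 0.05 or less. Their medians were 0.04 and -0.00.

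As over all genes tested, more members differed between the lines than between knockdown and control. In the same edgeR fit, 17 members were higher in SW620 than in SW480 at an adjusted p under 0.05, or 47.2%, against 32.3% of all genes tested, and 5 were lower, or 13.9%, against 31.3%. The other 14 of 36 members were not called, beside 5098 of 14024 for all genes tested. The count of members called higher was 13 without a filter, 14 with a filter of 50 counts, 13 with DESeq2 size factors and 8 with the DESeq2 Wald test, and the count called lower was 5 in each of these edgeR fits and 1 with the DESeq2 Wald test. Of the mitochondrial genes 10 of 16 were called higher and 1 lower, with a median log2 difference of 0.44. Of the cytosolic genes 7 of 20 were called higher and 4 lower, with a median of 0.12, beside 0.01 for all genes. The summed mitochondrial CPM of SW620 was 1.30 times that of SW480 in the controls and 1.26 times in the knockdowns. In the controls this sum went from 712 CPM in SW480 to 923 in SW620, while CARS2 alone went from 42.8 to 127 and TARS2 from 18.8 to 54.3. The summed cytosolic CPM was 1.16 and 1.27 times. In the controls it went from 4818 CPM in SW480 to 5597 in SW620, while KARS alone went from 251 to 767 and AARS from 278 to 609. The cytosolic median per kilobase was lower in SW620, at 76.1 against 79.0 in controls and 73.9 against 79.2 in knockdowns. Each line is a single culture pair, so line and culture cannot be told apart.

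KARS had 251 CPM in SW480 control and 247 in SW480 knockdown, against 767 in SW620 control and 873 in SW620 knockdown. It was 3.29-fold higher in SW620, with an adjusted p of 6.82e-61. AARS was 2.27-fold higher, with an adjusted p of 1.62e-29. For each gene both SW620 libraries lay above both SW480 libraries. KARS and AARS both lie on the long arm of chromosome 16, from 75627474 to 75648643 and from 70252295 to 70289543 in GRCh38. The 45 tested genes within 5 Mb of KARS had a median log2 difference of 1.10, and 30 of them were called higher in SW620 and 5 lower. The 117 around AARS also had a median of 1.10, with 81 called higher and 13 lower. Some neighbours are shared between the genes, and the part of the region in these differences was not tested. KARS has 3 pseudogenes in GENCODE 29, and how reads matching several places were counted is not stated.

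CARS2, the mitochondrial cysteinyl-tRNA synthetase on chromosome 13, had 42.8 CPM in SW480 control, 41.5 in SW480 knockdown, 127 in SW620 control and 119 in SW620 knockdown. Its log2 difference was 1.54 with a standard error of 0.13 (adjusted p = 4.36e-30), and the 37 genes around it had a median of 0.65. WARS2 and TARS2, both on chromosome 1, had log2 differences of 1.53 with an adjusted p of 3.88e-13 and 1.23 with an adjusted p of 1.47e-14. Here the neighbours did not stand apart, with medians of -0.10 over 27 genes and -0.06 over 143 genes. The log2 difference of WARS2 was 1.87 between the controls and 1.20 between the knockdown libraries, and that of TARS2 1.51 and 0.93, so in both cases the lines lay closer together in the knockdown libraries. For AARS2 the order was the opposite, with 0.65 and 1.10.

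The 5 genes called lower in SW620 had smaller differences than the 5 largest of those called higher. HARS2, for mitochondrial histidine tRNA, had 48.0 CPM in SW480 control, 54.8 in SW480 knockdown, 34.5 in SW620 control and 37.2 in SW620 knockdown. Both SW620 libraries lay below both SW480 libraries, and SW480 was 1.43-fold higher, with an adjusted p of 0.000495. RARS and VARS, for arginine and valine tRNAs, had log2 differences of -0.31 and -0.30, with adjusted p-values of 0.0158 and 0.0055. QARS and NARS, for glutamine and asparagine tRNAs, had -0.27 and -0.26, with adjusted p-values of 0.0258 and 0.032. With DESeq2 the calls of HARS2, RARS, QARS and NARS were lost, at adjusted p-values of 0.0663, 0.0648, 0.107 and 0.103.

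**Figure D4:**
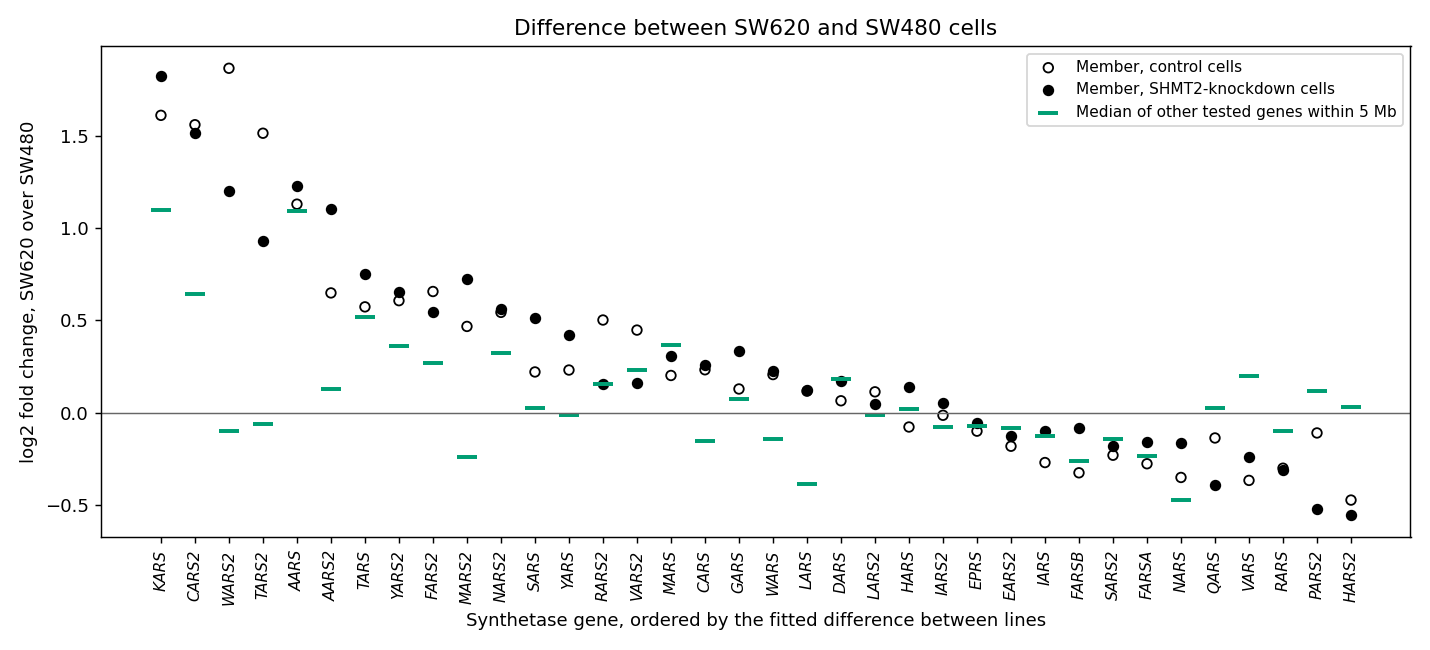
Log2 difference of SW620 against SW480 (vertical axis) for each synthetase gene, ordered by the fitted difference, between the control libraries (open circles) and between the knockdown libraries (filled circles), with dashes at the median of other tested genes within 5 Mb. The dashes reach 1.10 at KARS and AARS but lie at -0.10 and -0.06 at WARS2 and TARS2.

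HARS2 and its cytosolic counterpart HARS start 85 bases apart on chromosome 5 and run in opposite directions, so the stretch between the starts can serve both. It is given because HARS2 was called different between the lines and HARS was not, and reads as follows on the plus strand at chr5:140691370-140691455 (RefSeq, GRCh38.p14), from the start of HARS at its left end to that of HARS2.
HARS to HARS2: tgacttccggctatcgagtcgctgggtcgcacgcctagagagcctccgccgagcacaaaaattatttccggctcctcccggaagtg

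HARS had 142 CPM in SW480 control, 147 in SW480 knockdown, 135 in SW620 control and 162 in SW620 knockdown. Its log2 difference between the lines was 0.03 with an adjusted p of 0.831, against -0.52 with a standard error of 0.14 for HARS2. The difference between these genes was not tested. In GENCODE 29 they overlap on opposite strands, so without strand some reads could count for either.

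For 13 amino acids with a gene for each compartment, the ratio of the cytosolic to the mitochondrial level per kilobase was formed within each library. Its median was 5.30 in SW480 control, 5.74 in SW480 knockdown, 4.27 in SW620 control and 4.44 in SW620 knockdown. The ratio of WARS to WARS2 was 13.9, 7.70, 4.29 and 3.88 in that order, the widest spread of the 13 pairs as a ratio of highest to lowest, while WARS itself had 143 to 167 CPM. The ratio of AARS to AARS2 was 9.37 in SW480 control and 12.6 to 13.7 in the other libraries. CARS to CARS2 was the pair with ratios below 1, at 0.504 in SW620 control and 0.617 in SW620 knockdown, beside 1.27 and 1.48 in SW480. In SW620 the mitochondrial gene for cysteine tRNA was thus at a higher level per kilobase than the cytosolic one, and in SW480 it was not. Without division by length, CARS had 106 and CARS2 127 CPM in SW620 control, but 122 and 119 CPM in SW620 knockdown.

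Overlaps with other genes limit single values. In GENCODE 29, 22 of the 36 members overlap a gene on the opposite strand and 11 have a pseudogene of their own name.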

How the data were processed

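The RNA-seq libraries, 4 in all, came from control and SHMT2-depleted cells of both lines. What the authors deposited is a single table of unnormalized read counts by gene symbol. The labels describe Illumina TruSeq libraries. The submitters' processing notes name Bowtie 0.12.2 and hg18, with no role given. How reads were assigned to genes, with which annotation and whether by strand, is not given in the sources used here. Library totals stand in the report, and they limit precision most for the mitochondrial genes. Exon lengths and positions came from GENCODE 29 (GRCh38), and no coordinates of hg18 were used.

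The test kept the 14024 genes that reached 10 counts in 2 or more libraries. After TMM scaling, edgeR 4.0.16 (R 4.3.3) fitted cell line and treatment, and the quasi-likelihood test was two-sided, with Benjamini-Hochberg adjustment over all of these genes and 1 residual degree of freedom. Standard errors are the log2 fold change divided by the square root of F, and the 95% intervals use the normal quantile. The cell line pairs the libraries, and over genes the SW480 libraries deviated together from their condition means, with a correlation of 0.961. The study states that in vitro experiments were repeated, but not whether any library here came from a repeat or a pool. No line and condition had a replicate library. The p-values therefore rest on what the line and treatment terms leave unexplained, shared over genes, and do not measure a spread between replicates. A prior count of 2 entered the log2 values of a single line, whose intervals cover counting error only. The statistics were tested on simulated data. DESeq2 1.42.0, other scalings and other filters were alternatives.

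Described singly were SHMT2, members at an unadjusted p of 0.05 or less, the 4 largest rises and falls, the 4 largest differences between lines, the 4 highest and 4 lowest per kilobase in controls, and the 5 largest line differences in each direction. Of the related genes, those at an unadjusted p of 0.05 or less and MTFMT, MTO1, GTPBP3, ATF4 and ASNS were described. The response of QARS, the values of members with a promoter match and HARS were added after their values were seen. The members and lists were chosen with earlier results of these data known.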

Additional observations from a re-analysis of the deposited data

Results flagged for a closer look

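QARS had log2 fold changes of knockdown against control of opposite sign in the lines, 0.13 in SW480 and -0.13 in SW620, each outside the 95% counting interval around 0. The SW620 value minus the SW480 value was -0.26, with a counting standard error of 0.07. This difference was not tested, since each line and condition had 1 library.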

How the results depend on the processing

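In all fits compared, edgeR as reported, without a filter, with 50 counts in 2 libraries, with DESeq2 size factors, with total count scaling and without the cell line term, and DESeq2, 0 members passed an adjusted p under 0.05 for the knockdown. Over all genes, the calls lower and higher were 164 and 69 in the reported fit, 137 and 46 without a filter, 54 and 15 with 50 counts, 88 and 37 with total count scaling, 22 and 6 with the DESeq2 Wald test and 0 and 0 without the cell line term. The count of members higher at an unadjusted p of 0.05 or less, 2 as reported, was 1 without a filter, 1 with 50 counts, 0 with DESeq2 and 0 without the cell line term. SHMT2 itself had an adjusted p of 1.00 in that last fit, which leaves the paired lines out. With DESeq2, 1 member was called lower in SW620 and 8 higher, beside 5 and 17. The smallest edgeR quasi-likelihood p-values depended strongly on the filter. With 50 counts in 2 libraries the adjusted p of SHMT2 for the knockdown was 1.93e-08, beside 1.06e-167 as reported. That of KARS between the lines was 2.17e-09, beside 6.82e-61. Leaving out any library leaves its line without a contrast, so the other line stands alone with no test. The cytosolic median log2 fold change then ranged from 0.04 to 0.20 and the mitochondrial median from -0.00427 to 0.0426. For the lost calls the cause was not tested. PTRHD1 had no DESeq2 adjusted p. Counts limit the mitochondrial genes most, down to 66 in a library for WARS2.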
